A study of Mus musculus with 1646 samples.

Results

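The 9 genes *Htra3*, *Fndc1*, *Dpep1*, *Hsd11b1*, *Htra1*, *Fap*, *Pdpn*, *S100a4* and *Vim* were followed through the mesenchymal cells of the mouse colon. They are 9 of the 46517 genes of the count table, and each matched 1 row by its Ensembl identifier and its GENCODE vM21 symbol. *Htra3*, *Fndc1*, *Dpep1* and *Hsd11b1* were chosen by their large fold changes between fibroblasts and mural cells in these same counts. *Fap*, *Pdpn*, *S100a4* and *Vim* are markers in wide use for fibroblasts, and *Htra1* is a close relative of *Htra3*. Differences between fibroblasts and mural cells, and between clusters drawn from the same counts, are therefore given as descriptions with no test.

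CD31-negative cells were taken by flow sorting from the colon of male C57Bl6/J reporter mice aged 10 to 20 weeks, and each cell was sequenced from its own well with SmartSeq2, a full-length method without molecular identifiers. Fluorescence follows the gene in the name of each of the 4 reporter lines, PdgfraGFP (a nuclear H2BGFP knock-in) and the transgenes PdgfrbGFP, Acta2GFP and Cspg4dsRED. No mouse was treated, all tissue was dissociated with a skeletal muscle kit and collagenase, and only that of Acta2GFP mice also received elastase. The authors' clusters 1, 2, 5, 6 and 7 hold 1307 of the 1646 cells, the fibroblasts. Clusters 3, 4 and 8 hold the pericytes and smooth muscle cells, called mural here. The paper describes some smooth muscle cells of the colon mucosa without a link to vessels, so mural does not mean vessel wall throughout. Mural cells numbered 84 in Acta2GFP, 63 in Cspg4dsRED beside 28 fibroblasts, 2 in PdgfraGFP and 190 in PdgfrbGFP beside 571 fibroblasts. The depth was 47598 to 1494292 gene counts a cell, and its median was 253778 for fibroblasts and 221082 for mural cells. A level below is the mean count per 500000 over the cells of a reporter line, and a mean ± SD is over lines with at least 10 such cells. The labels name no mouse, so a line stands for 1 sample and the spread between lines includes strain, gate and dissociation.

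Fibroblasts build and remodel the extracellular matrix, and no single transcript is known to mark all of them and no other cell. Several of the 9 genes encode enzymes that act on that matrix or on signals within it. HTRA1 and HTRA3 are secreted serine proteases, FAP is a cell surface prolyl peptidase, DPEP1 is a membrane dipeptidase that also converts leukotriene D4, and HSD11B1 regenerates active glucocorticoid inside the cell. FNDC1 carries fibronectin type III domains, PDPN (podoplanin) is a mucin-like surface glycoprotein, S100A4 (also called FSP1) is a small calcium-binding protein, and vimentin is the intermediate filament of mesenchymal cells.

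The fibroblast clusters differed in *Cd34*, a surface sialomucin, and in *Tnc*, which encodes the matrix protein tenascin C. The mean level of *Cd34* was 1293 in cluster 7 (17.1% of fibroblasts), 1026 in cluster 5 (32.5%) and 595 in cluster 1 (36.95%). It was 30.2 in cluster 6 (45 cells, 3.44%) and 41.3 in cluster 2 (10.02%), no higher than the 28.3 to 42.7 of the mural clusters. *Tnc* ran the other way, from 16.9 in cluster 7 to 1972 in cluster 2, with 542 in cluster 1 and 421.4 in cluster 6. The clusters are therefore called *Cd34*-high (7, 5 and 1) and *Cd34*-low (6 and 2) here. By pericyte (*Kcnj8*, *Abcc9*, *Rgs5*) and smooth muscle (*Acta2*, *Myh11*, *Cnn1*, *Actg2*) markers fixed for this work, cluster 4 is called pericyte-like and clusters 3 and 8 smooth muscle-like. The summed level of the 5 fibroblast markers *Pdgfra*, *Col1a1*, *Dcn*, *Lum* and *Cd34* was 3465 to 7894 in the fibroblast clusters and 356.9 to 1254 in the mural ones. The summed level of 7 mural markers was 6837 to 9645 in the mural clusters, 1186 in cluster 6 and 112.04 to 284.2 in the other fibroblast clusters. Cluster 8 had the highest smooth muscle sum, 9658, but a pericyte sum of only 232.1. The pericyte sum was 207.4 in cluster 6, 904.8 in cluster 3 and 4215 in cluster 4. The summed levels of 6 immune, 4 epithelial and 4 endothelial markers reached at most 17.04, 6.11 and 51.02 in any cluster, the last in cluster 4. That of 3 markers of interstitial cells of Cajal was 305.6 to 342.7 in clusters 3 and 4, 124.5 to 187.5 in the *Cd34*-low clusters and 3.69 to 23.7 elsewhere. *Ano1* and *Etv1* made up these sums, while *Kit*, the defining marker, was at 0.503 or below in every cluster but cluster 3, where 1 line at 26.5 gave a mean of 8.85.

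*Htra3* was high in the *Cd34*-high clusters and low in the *Cd34*-low ones. In cluster 7 its level was 1013 in Acta2GFP, 1064 in PdgfraGFP and 1155 in PdgfrbGFP. In cluster 5 it was 883 in Acta2GFP, 1155 in Cspg4dsRED, 946 in PdgfraGFP and 1088 in PdgfrbGFP, and in cluster 1 it was 807 in Acta2GFP, 800 in PdgfraGFP and 1022 in PdgfrbGFP. These 3 clusters overlapped over lines. In cluster 2 the level was 104.8 in Acta2GFP, 57.4 in PdgfraGFP and 200.1 in PdgfrbGFP, and in cluster 6 it was 51.9 in Acta2GFP and 62.5 in PdgfraGFP. Every line of clusters 7, 5 and 1 thus lay above every line of clusters 2 and 6, which overlapped each other. The mural clusters were lower still, at 30.8 ± 28.4 (n = 2 lines) in cluster 4, 23.3 (n = 1 line) in cluster 8 and 18.4 ± 20.2 (n = 3 lines) in cluster 3. The lowest fibroblast cluster was only 1.86 times the highest mural cluster, while the highest fibroblast cluster was 35.04 times it. The mural means were carried by a minority of cells, since the median cell of cluster 4 was at 3.76 for *Htra3* and 0.789 for *Fndc1*, and the median mural cell had no count of *Dpep1*, *Hsd11b1* or *Pdpn*.

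*Hsd11b1* did not mark all fibroblasts. Its level was 240 ± 58.9 (n = 3 lines) in cluster 1, 217.9 ± 42.1 (n = 4 lines) in cluster 5 and 82.8 ± 18.1 (n = 3 lines) in cluster 7. In cluster 2 it was 1.11 in Acta2GFP, 0.623 in PdgfraGFP and 19.7 in PdgfrbGFP, and in cluster 6 it was 4.36 in Acta2GFP and 2.35 in PdgfraGFP. These values overlapped those of the pericyte-like cells (0 in Cspg4dsRED and 22.7 in PdgfrbGFP) and of the smooth muscle-like cells (0.0639 to 6.17). Clusters 1 and 5 overlapped over lines, cluster 7 lay apart below them, and everything else lay apart below cluster 7.

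The 10 other genes listed for glucocorticoid activation and response took varied patterns among the fibroblast clusters. *H6pd*, which encodes the enzyme that supplies the cofactor of HSD11B1 in the endoplasmic reticulum, had its highest mean levels in cluster 6 (209.4), cluster 1 (205.96) and cluster 2 (158.6), and its lowest among fibroblasts in cluster 7 (50.1). *Nr3c1*, the glucocorticoid receptor, was at 362.7 in cluster 6 and 182.6 in cluster 2 against 73.7 to 101.7 in clusters 5, 1 and 7. *Fkbp5*, a well-known glucocorticoid target, had a mean level of 33.6 in cluster 5 and 17.4 in cluster 7, but of 6.70 in cluster 2, above the 5.04 of cluster 1, and of 0.160 in cluster 6. *Hsd11b2*, the opposing enzyme, was at 1.10 to 8.34 in the *Cd34*-high clusters and at 0.205 or below in the *Cd34*-low ones. Among the targets, *Zbtb16* was at 8.28 to 10.2 in the former and at 1.81 or below in the latter, but was highest of all clusters in the pericyte-like cells, at 38.6. *Sgk1*, also a target, was at 69.2 in cluster 2 and 11.4 to 36.8 in the other fibroblast clusters, and *Tsc22d3* was at 132.3 in cluster 2, 40.1 in cluster 6 and 99.2 to 153.7 in the *Cd34*-high clusters. *Per1* and *Klf9* ranged from 35.3 to 87.1 and from 31.5 to 59.2 over the fibroblast clusters, and *Nr3c2*, the mineralocorticoid receptor, was at 5.99 or below in them and at up to 19.1 in the mural clusters.

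*Dpep1* peaked in cluster 5, where its level was 420 in Acta2GFP, 630 in Cspg4dsRED, 486 in PdgfraGFP and 525 in PdgfrbGFP. It was 222.4 ± 38.6 (n = 3 lines) in cluster 7, 99.3 ± 58.8 (n = 3 lines) in cluster 2 and 63.5 ± 35.1 (n = 3 lines) in cluster 1, and the last pair overlapped over lines. In cluster 6 it was 6.57 in Acta2GFP and 2.38 in PdgfraGFP, within the range of the mural lines (0.670 to 18.97). The fibroblast clusters thus spanned a 115.2-fold range of means. Among its partners in leukotriene processing, *Ggt5*, which encodes a gamma-glutamyltransferase acting on leukotriene C4 just before DPEP1, had mean levels of 265.8 in cluster 6 and 250.1 in the pericyte-like cells and 20.2 in cluster 7. *Ggt1* was detected at 8.85 in cluster 2 and at 0.118 or below elsewhere.

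*Fap* was, among fibroblasts, near 0 outside the *Cd34*-high clusters. Its level was 72.01 in Acta2GFP, 111.5 in PdgfraGFP and 52.8 in PdgfrbGFP in cluster 7, and 40.1 in Acta2GFP, 0.209 in Cspg4dsRED, 78.7 in PdgfraGFP and 30.2 in PdgfrbGFP in cluster 5. The means fell in overlapping steps to 27.2 ± 12.9 (n = 3 lines) in cluster 1. In cluster 2 it was 0.372 in Acta2GFP, 0.0986 in PdgfraGFP and 1.33 in PdgfrbGFP, and in cluster 6 it was 1.20 in Acta2GFP with no count in the 26 PdgfraGFP cells. The pericyte-like cells stood above these at 27.7 in Cspg4dsRED and 9.79 in PdgfrbGFP, and few cells carried those values. In the Cspg4dsRED pericyte-like cells 18.2% had a *Fap* count and the top 3 cells held 98.7% of the level, and in PdgfrbGFP 23.1% had a count and the top 3 held 75.8%. The level was also uneven among fibroblasts, where the median cell was at 1.14 and the highest at 983. The 15 PdgfraGFP cells of cluster 7 had 75.8% of their level in 3 cells. *Dpp4*, which encodes a related dipeptidyl peptidase, had a mean level of 37.3 in cluster 7 and of 5.14 or below in every other cluster.

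*Fndc1* was higher in every fibroblast cluster than in the mural clusters. Its level was 937 in Acta2GFP, 925 in PdgfraGFP and 992 in PdgfrbGFP in cluster 7, which lay apart from all other clusters. It was 560 ± 182.4 (n = 4 lines) in cluster 5, 416.7 ± 60.99 (n = 2 lines) in cluster 6 and 372.998 ± 33.2 (n = 3 lines) in cluster 1, which overlapped. In cluster 2 it was 116.3 in Acta2GFP, 152.2 in PdgfraGFP and 251.4 in PdgfrbGFP. The highest mural line, the PdgfrbGFP pericyte-like cells, was at 44.7. The lowest fibroblast cluster mean was 7.37 times the highest mural one, the largest such ratio of the 9 genes. *Htra3*, *Fndc1*, *Pdpn* and *S100a4* were the 4 members whose every fibroblast cluster mean lay above every mural one, and for the first 3 every single line did too. Over all 19173 genes in the class fit below the shares were 5.69% and 0.501%, and nothing is read from the members' counts, since *Htra3* and *Fndc1* were chosen by the class contrast. With no minimum of cells per line the counts were 2 and 0. For *Htra3* that margin was narrow, at 51.9 against 50.9, and it was lost by plate, where the lowest fibroblast value was 40.8 (cluster 2) and the highest mural one 88.3 (cluster 8). By plate *Fndc1* and *Pdpn* remained apart, with 84.6 against 50.1 and 75.1 against 60.9, as did 0.0991% of all genes.

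*Pdpn* was present in all fibroblast clusters, and its range among them was narrow, with a highest mean 2.01 times the lowest. The level was 275.6 in Acta2GFP, 237.4 in PdgfraGFP and 325.7 in PdgfrbGFP in cluster 1, and 221.2 in Acta2GFP, 152.6 in PdgfraGFP and 237.2 in PdgfrbGFP in cluster 2. It was 176.1 ± 95.2 (n = 2 lines) in cluster 6, 144.7 ± 61.2 (n = 3 lines) in cluster 7 and 139.4 ± 32.8 (n = 4 lines) in cluster 5, and clusters 2, 6, 7 and 5 overlapped in turn. All lay above the smooth muscle-like cells of cluster 8 at 45.4 (n = 1 line), the pericyte-like cells at 0.438 in Cspg4dsRED and 39.9 in PdgfrbGFP, and the smooth muscle-like cells of cluster 3 at 1.26 to 9.69. Podoplanin binds the hyaluronan receptor CD44 and the platelet receptor encoded by *Clec1b*. *Cd44* was highest in cluster 2, at a mean of 781, and lowest in cluster 1 among fibroblasts, at 57.9, whereas *Clec1b* was at 0.164 or below in every cluster.

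The mean level of *Htra1* was highest in cluster 2, where *Htra3* was low. Its level in cluster 2 was 669 in Acta2GFP, 523 in PdgfraGFP and 861 in PdgfrbGFP, and these lines overlapped those of cluster 1. The PdgfraGFP value joins 186.2 on the deeper plate of that line (median 725044 counts a cell) and 804 on the shallower one. It was 410 ± 125.9 (n = 3 lines) in cluster 1, 247.4 ± 152.7 (n = 2 lines) in cluster 6 and 202.9 ± 60.3 (n = 4 lines) in cluster 5, and these neighbours overlapped. In cluster 7 it was 126.7 in Acta2GFP, 98.9 in PdgfraGFP and 219.1 in PdgfrbGFP, which overlapped the pericyte-like cells at 188.98 in Cspg4dsRED and 169.3 in PdgfrbGFP and the smooth muscle-like cells of cluster 8 at 185.9. Only the smooth muscle-like cells of cluster 3, at 43.6 to 78.6, lay apart below all fibroblast clusters. *Htra2*, which encodes the mitochondrial member of the family, ranged from 35.9 in cluster 2 to 78.1 in cluster 6 among fibroblasts and from 21.4 to 26.9 in the mural clusters, and *Htra4* was at 1.51 or below in every cluster.

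**Figure D1:**
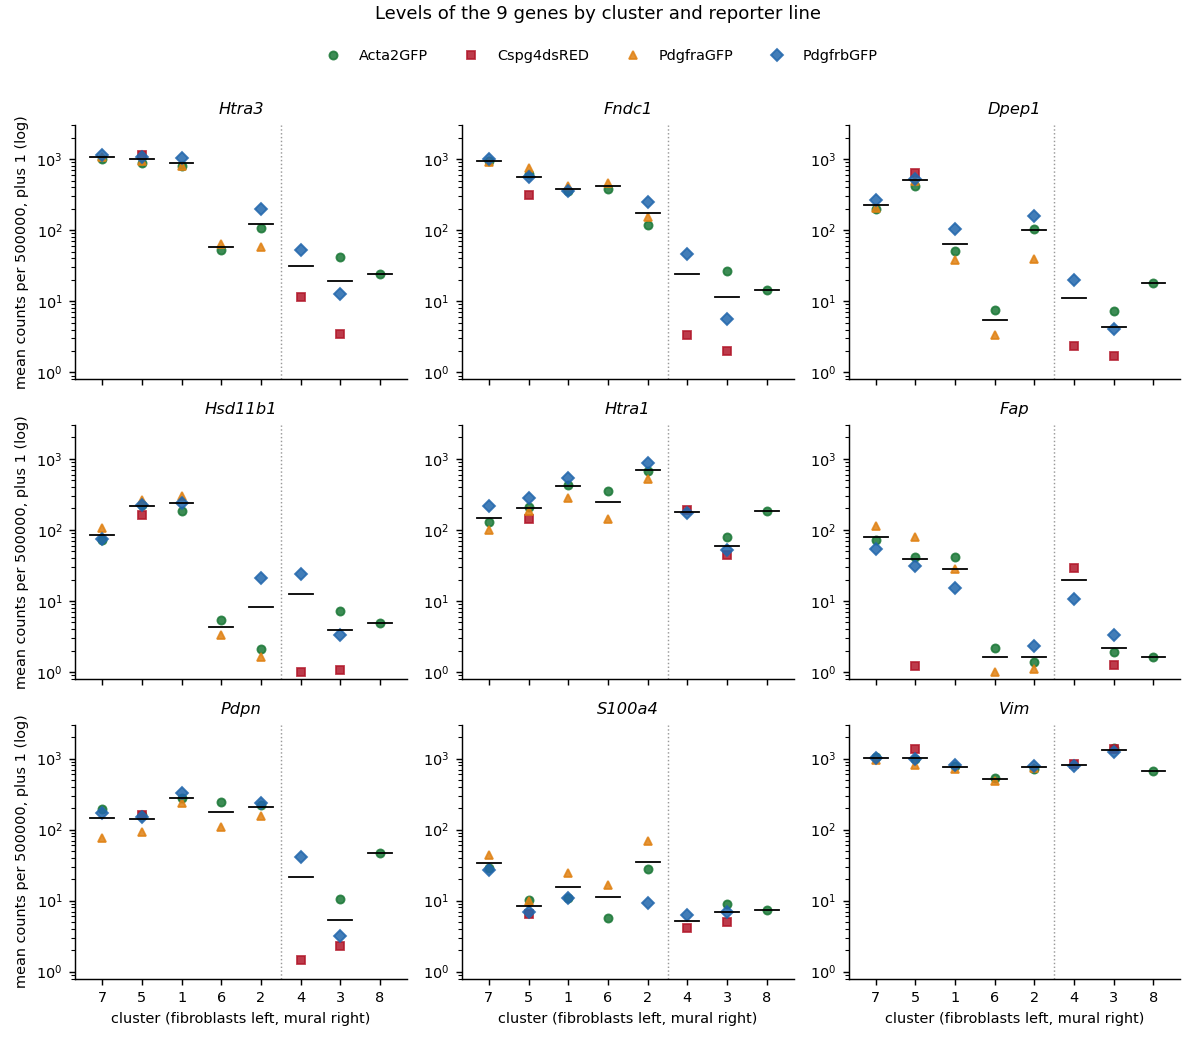
Level of each gene (mean counts per 500000, plus 1, log axis) in the 8 clusters, with 1 point for each reporter line with at least 10 cells and a bar at the mean over lines; fibroblast clusters stand left of the dotted line and mural clusters right. *Htra3*, *Hsd11b1*, *Dpep1* and *Fap* drop in cluster 6, where *Dpep1* and *Fap* have means of 4.47 and 0.599, while *Pdpn* stays at 176.1 and *Htra1* is highest in cluster 2.

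*S100a4* had low counts in every cluster, but its exons span only 584 bases. Per kilobase of exon its mean level was 58.3 in cluster 2 and 55.3 in cluster 7. The highest cluster means per kilobase were 56.4 for *Hsd11b1* and 13.9 for *Fap*. The level of *S100a4* in cluster 2 was 26.5 in Acta2GFP, 67.4 in PdgfraGFP and 8.12 in PdgfrbGFP, and in cluster 7 it was 27.7 in Acta2GFP, 43.3 in PdgfraGFP and 25.9 in PdgfrbGFP. The means of clusters 1, 6 and 5 were 14.3, 10.1 and 7.35, and those of the mural clusters were 4.24 to 6.34, with overlapping lines. S100A4 is also made by immune cells, and 885 of the 1307 fibroblasts had no count of any of 6 immune markers. The mean level over all fibroblasts was 16.5 in these 885 cells and 14.5 in the others, but by cluster it was 47.96 and 13.02 in cluster 2, 9.83 and 16.5 in cluster 1 and 7.96 and 20.5 in cluster 6. The values of *S100a4* are uncertain, since 51.7% of its 584 exon bases are shared with the gene *Gm42674* on the same strand and the treatment of reads in shared bases is not stated. The levels of both genes summed to 59.3 in cluster 2, 56.6 in cluster 7, 13.1 to 24.7 in clusters 5, 6 and 1, and 7.43 to 10.7 in the mural clusters, the same order as for *S100a4* at the top. *S100a6* and *S100a10*, 2 relatives of *S100a4*, had mean levels over fibroblast lines of 376.02 and 232.5.

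*Vim* did not separate the classes. Its highest level was in the smooth muscle-like cells of cluster 3, at 1396 in Acta2GFP, 1362 in Cspg4dsRED and 1224 in PdgfrbGFP. Clusters 5 and 7 followed at 1024 ± 233.5 (n = 4 lines) and 1010 ± 43.3 (n = 3 lines), with an overlap of cluster 5 with both neighbours. The pericyte-like cells and clusters 1 and 2 lay between 749 and 805, cluster 8 at 660 (n = 1 line) and cluster 6 at 508 ± 41.8 (n = 2 lines), the lowest. Among other intermediate filament genes, *Des* (desmin) was at 2.38 to 52.7 in the fibroblast clusters and 200.5 to 1159 in the mural ones, and *Nes* (nestin) was at 40.4 in cluster 2 against 0.192 to 1.53 in the other fibroblast clusters.

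Each gene was compared between the classes on raw counts summed over the fibroblasts of 4 lines and the mural cells of 3 lines, fitted with edgeR. In the Acta2GFP, Cspg4dsRED and PdgfrbGFP lines in turn, the level of *Pdpn* was 217.1, 204.005 and 231.8 in fibroblasts and 31.6, 0.831 and 25.4 in mural cells. That of *Htra1* was 308.6, 279.7 and 407.04 in fibroblasts and 142.6, 119.7 and 118.6 in mural cells. That of *Fap* was 44.04, 20.4 and 24.6 in fibroblasts and 0.738, 14.7 and 6.37 in mural cells. That of *Vim* was 890, 1324 and 895 in fibroblasts and 918, 1084 and 973 in mural cells, with mural cells higher in 2 of the 3 lines. The fitted log2 fold change toward fibroblasts was 4.02 ± 0.87 (SE) for *Pdpn*, 2.20 ± 0.92 for *Fap*, 1.68 ± 0.60 for *S100a4*, 1.27 ± 0.28 for *Htra1* and −0.13 ± 0.26 for *Vim*. Ranked by this value among the 19173 genes in the fit, *Pdpn* lay in the top 4.11%, *Fap* in the top 9.63%, *S100a4* in the top 12.9%, *Htra1* in the top 16.8% and *Vim* at 54.2%. *Htra3*, *Fndc1*, *Dpep1* and *Hsd11b1*, which this contrast chose, lay in the top 2.22% to 2.65%. For 8 of the 9 members the value reached 1 or more, as it did for 20.8% of all genes, and nothing is read from that count since the contrast was used in the choice. The lowest fibroblast line lay above the highest mural line for 7 of the 9, all but *S100a4* and *Vim*, and for 10.7% of all genes. With plates in place of lines, *Htra1* and *Fap* also overlapped and 5 of the 9 remained apart, against 3.22% of all genes, and 4 of these 5 were chosen by this contrast. Without the Cspg4dsRED line, the log2 fold change of *Fap* was 4.01, that of *Pdpn* 3.40, and that of *Htra3* 4.53, and without the Acta2GFP line that of *Fap* was 1.64.

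Of the 14 other fibroblast markers in use, 13 reached a log2 fold change of 1 or more toward fibroblasts, with a median of 2.50 against −0.03 over all genes. *Thy1*, which encodes a surface protein often used to sort fibroblasts, was the exception at −0.14 ± 0.64 (SE), with a mean level of 29.7 in the pericyte-like cells and 0.158 to 23.04 in the fibroblast clusters. In the gene families of the members, leaving the members out, the fold change was at least 1 for 7 of 10 other S100 genes in the fit, 4 of 5 other FNDC genes, 4 of 8 dipeptidase and leukotriene genes, 3 of 6 prolyl and dipeptidyl peptidases, 3 of 10 glucocorticoid genes, 1 of 2 other HTRA genes, 1 of 11 other intermediate filament genes and 0 of 6 podoplanin partners, beside the 20.8% of all genes. Some genes counted at 1 or more were near the floor in both classes. The mean levels over fibroblast and mural lines were 0.373 and 0.0724 for *S100a3* and 0.208 and 0.0599 for *S100a14*. They were 0.758 and 0.0243 for *Ggt1* and 0.639 and 0.0930 for *Ltc4s*. The fold change was −1 or less for 18.1% of all genes. Such values were held by 2 glucocorticoid genes, by 1 gene each of the S100, prolyl peptidase and dipeptidase families, and by 5 intermediate filament genes, among them *Des* at −4.54 ± 0.39 and *Nes* at −3.41 ± 0.93.

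Within fibroblasts, cluster 2 (*Cd34*-low, *Tnc*-high) was set against cluster 7 (*Cd34*-high, *Tnc*-low) in a fit over the 5 fibroblast clusters. The log2 fold change was −6.83 ± 1.54 (SE) for *Fap*, −3.31 ± 0.90 for *Hsd11b1*, −2.80 ± 0.41 for *Htra3*, −2.33 ± 0.29 for *Fndc1* and −1.21 ± 0.62 for *Dpep1*. It was 2.31 ± 0.46 for *Htra1*, 0.57 ± 0.36 for *Pdpn*, 0.02 ± 0.82 for *S100a4* and −0.26 ± 0.17 for *Vim*. Thus 5 members had a value of −1 or less, as did 23.2% of the 18924 genes in the fit, and 1 member had a value of 1 or more, as did 23.8%. Of the 14 other fibroblast markers in use, 6 had a value of −1 or less and 2 had one of 1 or more. *Thy1* was at −5.73 ± 1.08, *Cd34* at −4.72 ± 0.78, *Col1a1*, which encodes a chain of type I collagen, at 0.20 ± 0.21, and *Pdgfra*, which encodes a growth factor receptor, at 2.38 ± 0.30. Without the PdgfrbGFP line the value was −6.43 for *Hsd11b1*, −3.53 for *Htra3* and −2.87 for *Fndc1*, and without the PdgfraGFP line that of *Dpep1* was −0.89.

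**Figure D2:**
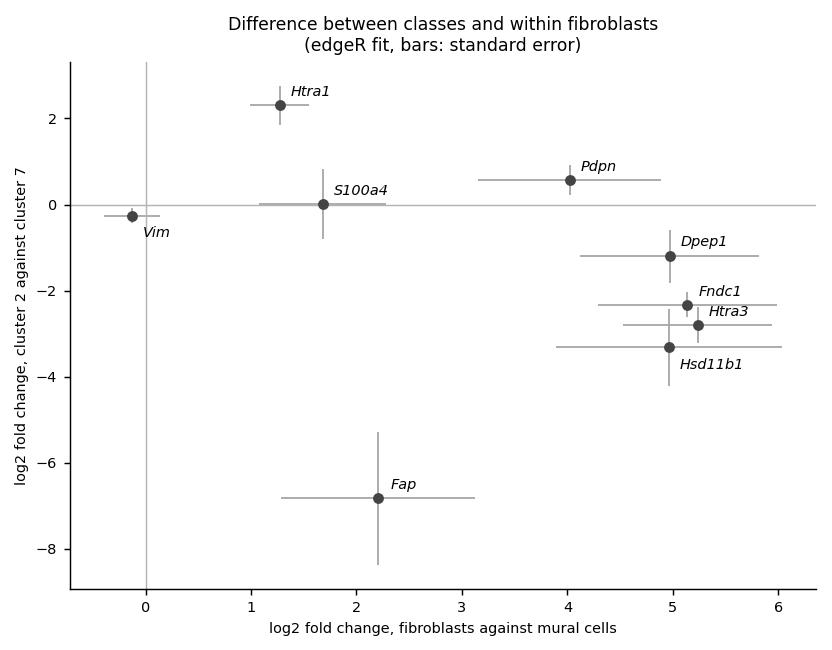
Fitted log2 fold change of fibroblasts against mural cells (horizontal) and of fibroblast cluster 2 against cluster 7 (vertical) for the 9 genes, with standard errors as bars. *Htra3*, *Fndc1*, *Dpep1* and *Hsd11b1* lie at 4.97 to 5.23 and below 0 on the vertical axis, *Pdpn* lies at 4.02 and 0.57, and *Htra1* is the member with the highest vertical value, 2.31.

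Across the 15 fibroblast units (a cluster within a line, at least 10 cells each), the closest member pair was *Htra3* and *Hsd11b1*, with Pearson's r of 0.94 between their log2(level + 1). The most opposed pair was *Fndc1* and *Htra1*, with r of −0.75, and *Htra3* and *Htra1* had r of −0.42 over these units and 0.36 over 21 units of all clusters. These units share lines, plates and cells of neighbouring clusters, and the values are descriptions. The promoters of the close pair and of *Htra1* are shown because the former move together and *Htra1*, the relative of *Htra3*, peaks in another cluster. The sequences are the 250 bases before the RefSeq start on GRCm38.p6, written 5′ to 3′ on the gene's strand, with searched motifs in capitals. That of *Htra3* is chr5:35679781-35680030 (minus strand), that of *Hsd11b1* is chr1:193242361-193242610 (minus strand, inside the longer span of the gene in GENCODE vM21), and that of *Htra1* is chr7:130935953-130936202 (plus strand).
Htra3: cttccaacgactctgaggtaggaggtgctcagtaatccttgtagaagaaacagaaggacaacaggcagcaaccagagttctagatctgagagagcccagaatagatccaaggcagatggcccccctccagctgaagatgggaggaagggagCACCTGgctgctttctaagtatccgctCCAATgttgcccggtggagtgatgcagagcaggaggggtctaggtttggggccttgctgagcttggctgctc
Hsd11b1: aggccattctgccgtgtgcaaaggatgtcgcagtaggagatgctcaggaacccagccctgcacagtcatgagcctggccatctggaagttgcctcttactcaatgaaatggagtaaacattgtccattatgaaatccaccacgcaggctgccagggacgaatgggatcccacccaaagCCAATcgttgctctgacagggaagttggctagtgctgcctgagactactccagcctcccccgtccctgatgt
Htra1: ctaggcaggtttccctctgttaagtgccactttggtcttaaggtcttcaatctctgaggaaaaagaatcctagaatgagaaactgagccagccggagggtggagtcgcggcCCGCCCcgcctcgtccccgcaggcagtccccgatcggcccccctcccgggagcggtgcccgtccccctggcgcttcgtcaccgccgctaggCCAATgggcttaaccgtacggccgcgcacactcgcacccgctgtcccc

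The motif CCAAT stood on the gene strand 72 bases before the start in *Htra3*, 72 bases before it in *Hsd11b1* and 48 bases before it in *Htra1*. It also stood in *Vim* on both strands, and 33.8% of 32851 promoter windows of the same length hold it on either strand. The *Htra3* window also held CAGGTG on the other strand (as CACCTG), found in 17.2% of windows, and that of *Htra1* held GGGCGG on the other strand (as CCGCCC), as did that of *Fndc1*, found in 32.7%. Windows were found for 8 of the 9 members, and *Fap* had none in the table. The motif TATAAA, in 12.4% of windows, stood on the gene strand 31 bases before the start of *S100a4* and 32 bases before that of *Vim*, and on the other strand in *Fndc1*. GGAATG, in 12.6% of windows, was found in *Dpep1* on the other strand, TGANTCA, in 6.75%, in no member, and none of the 6 motifs in *Pdpn*. The windows held 22 CpG in *Htra1* and 18 in *Fndc1* against 3 in *Htra3* and 2 in *Pdpn*, with a median of 6 over all windows. A match is a description of letters only.

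Per cell, *Htra3* was found in almost every cell of the *Cd34*-high clusters. After every cell was thinned to 50000 counts, at least 1 count of *Htra3* was present in 95.6% of 1301 fibroblasts and 42.8% of mural cells, against 98.7% and 72.6% without thinning. The share was 80% (65.4 to 90.4 by the 95% Clopper-Pearson interval) in cluster 6 and 65.6% (56.9 to 73.7) in cluster 2. *Fndc1* was present in 94.2% of fibroblasts and 27.2% of mural cells after thinning, *Pdpn* in 88.2% and 25.7%, and *Htra1* in 93.8% and 61.7%. *Hsd11b1* was present in 77.1% of fibroblasts, but in 24.4% of cluster 6 and 21.4% of cluster 2, against 18.3% of mural cells, so its share in the *Cd34*-low clusters was close to the mural background. *Fap* was present in 32.9% of fibroblasts and 7.49% of mural cells, with 54.5% in cluster 7 and 3.05% in cluster 2. *S100a4* was present in 25.1% and 12.9%, and *Vim* in 99.7% and 100%. Without thinning, *Hsd11b1* was present in 87.7% of fibroblasts, 62.2% of cluster 6, 43.5% of cluster 2 and 45.7% of mural cells. The unthinned *Fap* share in cluster 2 was 15.9% in Acta2GFP, 7.27% in PdgfraGFP and 50% in PdgfrbGFP. The intervals given here treat cells as independent, cover counting error only and leave out the spread between lines. After thinning, the *Htra3* share in fibroblasts ran from 82.7% in PdgfraGFP to 100% in Cspg4dsRED. The counts also lack molecular identifiers.

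**Figure D3:**
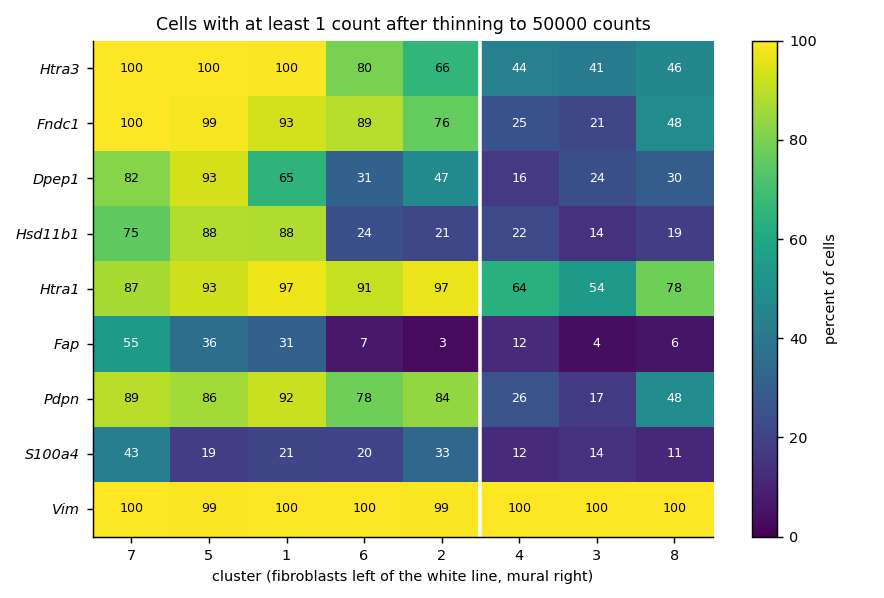
Percent of cells with at least 1 count of each gene after thinning to 50000 counts, for the 5 fibroblast clusters (left of the white line) and the 3 mural clusters. *Htra1* and *Pdpn* remain at 97% and 84% in cluster 2, where *Fap* is at 3%, and *Vim* is at 99% or more in every cluster.

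A single gene told the classes apart to very different degrees. Within each of the 3 lines with at least 10 cells of both classes, the probability that a random fibroblast had a higher thinned count than a random mural cell was 0.979 ± 0.018 (SD, n = 3 lines) for *Htra3*, 0.919 ± 0.037 for *Fndc1* and 0.883 ± 0.041 for *Pdpn*. It was 0.832 ± 0.067 for *Hsd11b1*, 0.818 ± 0.076 for *Dpep1*, 0.749 ± 0.082 for *Htra1*, 0.617 ± 0.080 for *Fap*, 0.579 ± 0.035 for *S100a4* and 0.547 ± 0.070 for *Vim*, where 0.5 is no separation. By cluster, with the mural cells of all lines pooled, *Htra3* ranged from 0.996 in cluster 7 to 0.687 in cluster 2, where *Htra1* reached 0.889. A thinned count of none of *Htra3*, *Fndc1*, *Dpep1* and *Hsd11b1* was found in 13 of 1301 fibroblasts (0.999%, with 0.533 to 1.70 as the 95% Clopper-Pearson interval). The intervals in this paragraph treat cells as independent and leave out the spread between lines and plates. The 4 genes were chosen by the class contrast, so these shares are descriptions. The share of cells with none of the 4 was 40.4% among all mural cells, with 19.5% in Acta2GFP, 67.2% in Cspg4dsRED and 41.3% in PdgfrbGFP. Of these 13 fibroblasts, 12 were in cluster 2, which is 9.16% (4.82 to 15.5) of that cluster over all lines. By line, 11 of the 13 were PdgfraGFP cells, which is 4.89% of the fibroblasts of that line. Of the others, 2 were Acta2GFP cells, and none was a PdgfrbGFP cell. The lines differ in cluster make-up, since cluster 2 held 55 PdgfraGFP, 44 Acta2GFP and 30 PdgfrbGFP cells, although PdgfrbGFP had the most fibroblasts. A difference between lines apart from cluster make-up was not tested. All 4 genes were present in 60.8% of fibroblasts, from 82.8% in cluster 5 to 11.1% in cluster 6, and in 8.08% of mural cells.

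The share of the fibroblast level found in mural cells differed between lines and between members. In the Acta2GFP, Cspg4dsRED and PdgfrbGFP lines in turn, the mural level was 3.64%, 0.591% and 3.42% of the fibroblast level for *Htra3*, 3.13%, 0.426% and 5.30% for *Fndc1*, and 14.5%, 0.407% and 10.98% for *Pdpn*. The fibroblast marker *Pdgfra* gave 4.39%, 0.184% and 7.12%, and *Cd34* gave 4.46%, 0.576% and 6.38%. The percentages of all of these were lowest in Cspg4dsRED, the line with 28 fibroblasts and 63 mural cells. For *Hsd11b1* the Cspg4dsRED mural level rested on 1 count in 63 cells. *Htra1* kept 46.2%, 42.8% and 29.1% of its fibroblast level in mural cells, and *Fap* 1.68%, 71.9% and 25.9%. Mural cells were also parted at the median of their summed 5 fibroblast markers. In the lower and upper part *Htra3* was at 3.67 and 53.5, *Fndc1* at 1.53 and 44.7, and *Pdpn* at 6.06 and 42.9. *Fap* was at 6.49 and 6.50, and *Vim* at 1145 and 808. The parts differ in cluster make-up, and the reason was not tested. Within the 6 plates with at least 10 cells of both classes, the count of *Htra3* in a mural cell had a mean Spearman's rho of 0.605 with its summed count in fibroblasts of the same plate row or column, with plates from 0.305 to 0.745. The mean rho was 0.513 for *Fndc1*, 0.466 for *Pdpn*, 0.397 for *Hsd11b1* (plates from 0.0039 to 0.884) and 0.339 for *Dpep1*. It was 0.184 for *Vim*, 0.176 for *Fap*, 0.082 for *Htra1* and 0.027 for *S100a4*. Cells of a plate share a library pool and a sequencing lane, and the part of such transfer between wells in the mural levels was not tested.

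**Figure D4:**
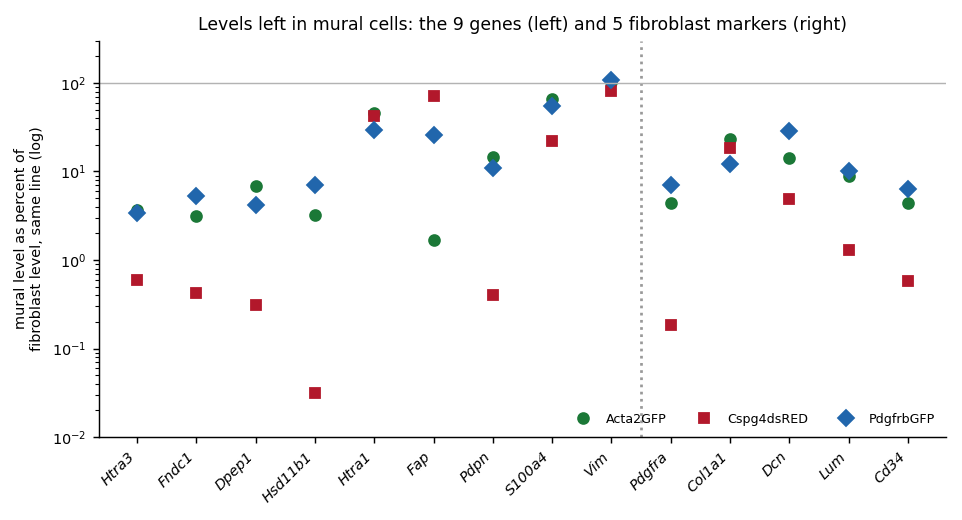
Level in mural cells as a percent of the level in fibroblasts of the same line (log axis) for the 9 genes and, right of the dotted line, 5 fibroblast markers, with 1 point for each of 3 reporter lines. *Htra3*, *Fndc1*, *Dpep1* and *Hsd11b1* stay at or below 7.03% in every line, *Htra1* lies between 29.1% and 46.2%, and *Vim* between 81.9% and 108.8%.

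The reporter lines were compared within cluster 1, the largest cluster, on counts summed per plate. The choice of genes rested on other contrasts, but it was made with earlier results of these data known. Plates may share mice, so the p-values measure the spread between plates, and the Acta2GFP line cannot be told apart from its elastase treatment or its gate. Both contrasts use the same 4 PdgfrbGFP plates. The share of cluster 1 cells with a *Fap* count, without thinning, was 57.6% in PdgfrbGFP, 55.2% in Acta2GFP and 38.5% in PdgfraGFP. In PdgfraGFP the top 3 cells held 44.3% of the level. The level of *Fap* was 31.6 and 48.5 on the 2 Acta2GFP plates, 17.9 and 32.8 on the 2 PdgfraGFP plates, and 13.003, 16.1, 9.99 and 16.7 on the 4 PdgfrbGFP plates. Every PdgfrbGFP plate thus lay below every plate of the other lines in level, though not in share of cells by line. The log2 fold change against PdgfrbGFP was 1.63 ± 0.63 (SE) in Acta2GFP and 1.10 ± 0.64 in PdgfraGFP, with adjusted p = 1 and 0.734 (edgeR quasi-likelihood test, Benjamini-Hochberg over 15700 genes). The level of *Dpep1* was 57.3 and 42.7 on the Acta2GFP plates, 25.6 and 43.8 on the PdgfraGFP plates, and 81.8, 142.03, 34.7 and 109.1 on the PdgfrbGFP plates, with an overlap through 1 PdgfrbGFP plate. Its log2 fold change was −1.24 ± 0.63 in Acta2GFP (adjusted p = 1 by edgeR) and −1.76 ± 0.65 in PdgfraGFP (adjusted p = 0.708 by edgeR).

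*Htra1* was at 437.8 and 407.3 on the Acta2GFP plates, 181.1 and 334.1 on the PdgfraGFP plates and 553, 515.9, 490 and 463.6 on the PdgfrbGFP plates. The PdgfraGFP plates were thus the lowest, at a log2 fold change of −0.98 ± 0.35 against PdgfrbGFP (adjusted p = 0.708 by edgeR). *S100a4* was at 9.27 and 10.3 on the Acta2GFP plates, 38.5 and 14.6 on the PdgfraGFP plates and 10.8, 11.05, 1.86 and 3.30 on the PdgfrbGFP plates, at a log2 fold change of 1.82 ± 0.95 for PdgfraGFP (adjusted p = 0.710 by edgeR). The 2 PdgfraGFP plates disagreed for several members. On the deeper plate, with a median of 725044 counts a cell, *Htra3* was at 346.3, *Fndc1* at 84.6 and *Pdpn* at 410.7. On the shallower plate, with a median of 249443, they were at 1065, 602 and 136.02. For the other members the fold changes lay between −0.57 and 0.24 in Acta2GFP and between −0.43 and 0.38 in PdgfraGFP.

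No member, and no other gene, passed an adjusted p of 0.05 with edgeR in either contrast (0% of 15700 genes higher and 0% lower). At an unadjusted p under 0.05, 1.31% of genes were higher and 1.46% lower in Acta2GFP, and 1.63% were higher and 5.12% lower in PdgfraGFP. DESeq2 called 4 genes higher and 25 lower in Acta2GFP, and 33 genes higher and 2.44% of genes lower in PdgfraGFP, none of them a member, and limma called none. Of the 87 genes of the families listed above, 74 were tested and none was called, with 5 and 9 at an unadjusted p under 0.05.

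**Figure D5:**
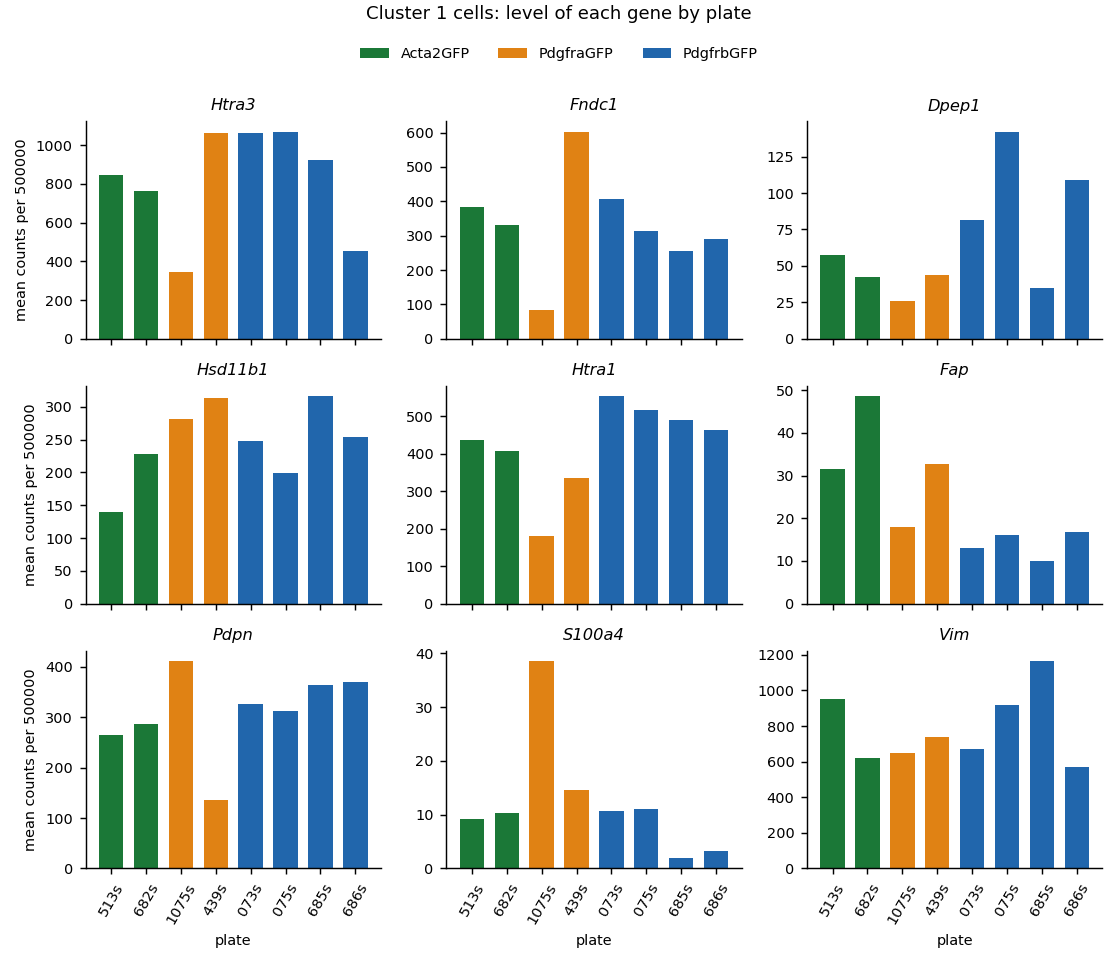
Level of each gene (mean counts per 500000) in the cluster 1 cells of 8 plates, coloured by reporter line, with 1 bar for each plate. The 4 PdgfrbGFP plates have the lowest *Fap* bars, at 9.99 to 16.7, and the 2 PdgfraGFP plates differ in *Fndc1*, at 84.6 and 602.

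The genes whose pattern was most like that of each member were taken over 21 units of all clusters by Pearson's r of log2(level + 1), among 12516 genes. For *Htra3* these were *Fbln2* (0.972), *Qpct* (0.95) and *Fbln1* (0.946), and *Qpct* was also the second for *Dpep1* (0.919) after *Igfbp6* (0.944). For *Fndc1* they were *Mrc2* (0.964), *Dpt* (0.963) and *Plekha6* (0.956), and for *Hsd11b1* *Lepr* (0.987), *Adh1* (0.970) and *C4b* (0.963). *Lepr*, the leptin receptor, was the closest match of any member apart from the overlapping gene of *S100a4*. For *Pdpn* they were *Efemp1* (0.960), *Mgst1* (0.958) and *Lpar1* (0.952), but over the 15 fibroblast units alone the mean r of these 3 with *Pdpn* was 0.245. The choice of units and measure changed most of these matches, while *Hsd11b1* kept *Lepr* and *Adh1* among its top 3 under every setting tried. Matches were looser for *Fap* (*Agtr1a*, 0.906), *Htra1* (*Arhgap28*, 0.885) and *Vim* (*St6gal1*, 0.862). For *S100a4* the closest was *Gm42674* (0.997), with which it shares exon bases, and the next was *Yipf3* (0.795).

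On GRCm38, *Htra3* lies on chromosome 5 from 35652023 to 35679782 and *Htra1* on chromosome 7 from 130936111 to 130985660. *Fndc1* lies on chromosome 17 from 7738569 to 7827302, *Dpep1* on chromosome 8 from 123186242 to 123201812, and *Hsd11b1* on chromosome 1 from 193221634 to 193264075. *Pdpn* lies on chromosome 4 from 143267431 to 143299564, *S100a4* on chromosome 3 from 90603771 to 90606045, and *Fap* and *Vim* on chromosome 2 from 62500943 to 62574075 and from 13573927 to 13582826. The loci of *Htra1* and *Hsd11b1* overlap *Fgfr2* and *Lamb3* on the opposite strand, and that of *Dpep1* overlaps *Gm20388* on the same strand, in each case without shared exon bases.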

How the data were processed

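The authors sequenced SmartSeq2 libraries of sorted colon cells as single reads of 50 bases, mapped them with TopHat2 to GRCm38 and counted reads per gene with featureCounts. The values the authors deposited are raw counts, whole numbers for each gene in each cell, and use of strand in the counting is not stated. The 92 ERCC spike-in rows (1.36% of counts) were left out, and all columns were used. The members, the gene lists and the tests were chosen with earlier results of these data known. Genes named are the 9 members, the genes of 9 lists around them and the 3 genes most like each member among those reaching a level of 10. *Cd34*, *Tnc* and genes sharing a locus with a member were named after their values were seen.

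Levels are counts per 500000 averaged over cells. Raw counts were summed per line or plate with at least 10 cells, filtered with filterByExpr, normalized with TMM and fitted with edgeR's quasi-likelihood model. Adjusted p-values are Benjamini-Hochberg over all genes tested, with a threshold of 0.05. The clusters are the authors', and no doublet caller was run. The line contrasts were tested on simulated data first. Alternatives were DESeq2, limma, no filter, other units and depths, and each line or plate left out. Software was Python 3.11.15 (numpy 2.4.6, scipy 1.17.1, pandas 2.3.3) and R 4.3.3 (DESeq2 1.42.0, edgeR 4.0.16, limma 3.58.1).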

Additional observations from a re-analysis of the deposited data

Results flagged for a closer look

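Of 45 groups of 4 to 10 samples, 3 held a sample far from the others by Dixon's criterion, and chance alone marks about 1 group in 20. The *Pdpn* level in fibroblasts was lowest of 9 plates on the shallower PdgfraGFP plate, at 100.6, where the other plates ranged from 204.005 to 273.5. The *Pdpn* level in cluster 5 was lowest of 4 lines in PdgfraGFP, at 90.7, where the other lines ranged from 149.1 to 160.2. The *S100a4* level in fibroblasts was highest of 9 plates on the deeper PdgfraGFP plate, at 49.8, where the next was the shallower PdgfraGFP plate at 21.6.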

How the results depend on the processing

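The share of genes called between lines in cluster 1, 0% in each direction with edgeR, changed with the tool. DESeq2 called 0.0255% higher and 0.159% lower in Acta2GFP and 0.210% higher and 2.44% lower in PdgfraGFP. No filter on low counts gave 0.0186% lower in Acta2GFP, and 0.00372% higher and 0.0372% lower in PdgfraGFP. Leaving out 1 plate gave 0% to 0% except for genes lower in PdgfraGFP, at 0% to 0.0280%, the latter without the shallower PdgfraGFP plate. The cause was not tested, and no member was called under any setting.

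With no minimum of cells per line, 2 members in place of 4 had every fibroblast cluster mean above every mural mean, and 0 in place of 3 had every line above, since lines with as few as 2 cells then count.

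Fold changes between lines that turned sign, none called, were as follows. For Acta2GFP with cluster 5 in place of cluster 1 they became 0.14 for *Dpep1*, 0.23 for *Pdpn*, −0.062 for *S100a4* and 0.27 for *Vim*. With all fibroblast clusters summed they became −0.0082 for *Htra3*, 0.046 for *Pdpn* and 0.11 for *Vim*, and with limma −0.044 for *Htra3*. For PdgfraGFP, *Fndc1* became −0.46 with limma and −0.30 with all clusters, *Dpep1* 0.022 in cluster 5, and *Hsd11b1* −0.019 with DESeq2, −0.027 with no filter and −0.36 with all clusters. Leaving out 1 plate gave −0.12 to 0.28 for *Htra3* and −0.54 to 0.27 for *Vim* in Acta2GFP. In PdgfraGFP it gave −1.23 to 0.50 for *Htra3*, −1.84 to 1.19 for *Fndc1*, −0.13 to 0.25 for *Hsd11b1*, −1.45 to 0.17 for *Pdpn* and −0.41 to 0.050 for *Vim*.

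In 99 of 99 alternatives the class fold change of a member moved by less than the SD of its log2 ratio over lines. None of the 8 members at 1 or more turned sign, and the sign of *Vim* was not part of this check. The count of 8 members at least 2-fold higher in fibroblasts was 7 without the PdgfrbGFP line and 8 in the other alternatives. The count of 1 higher in cluster 2 was found in all 11. The count of 5 lower in cluster 2 was 4 without the PdgfraGFP line, where *Dpep1* was at −0.89, and 5 in the others. Fibroblast and mural sums of a line come in part from the same plates, and their deviations from the class means correlated at 0.082 in Acta2GFP, 0.146 in Cspg4dsRED and 0.214 in PdgfrbGFP. With the line as a replicate block the same counts, 8, 5 and 1, were found. No paired analysis was possible for the line contrasts because the plates carry no shared number. The 3 most like genes changed in 26 of 27 alternatives. The percent of cells with a count moved in 45 of 54 alternatives. Levels near that of 1 count, such as *Fap* in cluster 6, are limited by depth.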
